A study of Chlorocebus sabaeus with 10 samples.

Results

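Fasting-response regulators and fuel switch genes were examined in liver biopsies of 10 female vervet monkeys (Chlorocebus sabaeus), 5 fed the high fructose (HFr) diet and 5 fed chow for 6 weeks, all of which had eaten chow before the study. The genes were PDK4, PDK1, PDK2, CREB3L3, CYP4A11, KLF15, TXNIP and VNN1, taken by gene symbol from the deposited transcript table, which holds 28078 transcripts. A row carried the symbol of 7 of these 8 genes, each with 1 annotated transcript, and 6 of the 7 had enough counts to be tested. CYP4A11, a fatty acid omega-hydroxylase, matched no symbol and was not analysed here. The comparison asks how the diet changed their transcript levels. Each animal gave 1 library of polyadenylated RNA. The labels give no other treatment, and the feeding state of the animals at biopsy is not given in the sources used here.

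During a fast the liver stops oxidizing glucose carbon and burns fatty acids instead. Pyruvate dehydrogenase kinases (PDKs) are part of this fuel switch: they phosphorylate and silence the pyruvate dehydrogenase complex, so that pyruvate is spared for glucose synthesis. The nuclear receptor PPARA, the liver-enriched membrane-bound factor CREB3L3 and the Kruppel-like factor KLF15 turn on fasting genes, PDK4, CYP4A11 and VNN1 are classical PPARA targets, and TXNIP is a glucose-responsive arrestin that restrains glucose uptake. Refeeding and insulin lower PDK4, whereas sugars raise TXNIP through the carbohydrate response factor MLXIPL.

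The libraries held between 2977282 and 4992505 estimated counts per animal, of which 864571 to 2657103 fell on nuclear transcripts. The share on mitochondrial transcripts ran from 41.8% to 67.8% on the HFr diet and from 34.7% to 73.6% on chow, and its means did not differ detectably (55.5% ± 11.8 and 55.4% ± 16.5, SD, n = 5 each, two-sided exact permutation test, p = 0.992). All 10 hepatocyte markers examined, among them ALB, APOB and CPS1, were tested, and their summed level ranged from 49496 to 75709 normalized counts in the HFr animals and from 40327 to 80224 in the chow animals. PDK4, KLF15 and TXNIP are also abundant in skeletal muscle. The summed level of the 9 muscle markers found was between 0.754 and 2.44 normalized counts on the HFr diet and between 0.734 and 2.97 on chow, and MYH2, MYH7, CKM and MB were at 0 in every animal. Among markers of other liver cells, 5 of the 6 tested for stellate cells and fibroblasts were lower on the HFr diet, ACTA2 with an unadjusted p under 0.05 (log2 fold change -1.57, unadjusted p = 0.00646 from edgeR). Of the 8 endothelial markers 5 were higher, KDR with an unadjusted p under 0.05 (log2 fold change 0.57, unadjusted p = 0.0109 from edgeR). Neither ACTA2 nor KDR passed adjustment, and of all transcripts 2.23% were called lower and 2.06% higher. The medians of the summed marker levels pointed the other way. For stellate cells and fibroblasts the median was 375 normalized counts in HFr animals against 294 in chow animals. Chow replicates 1 and 5 were the highest of all, at 827 and 686. For endothelial cells the median was 395 in HFr animals against 440 in chow animals. The part of these markers in the results was not tested. Normalized counts are CPM values for library sizes after TMM scaling (trimmed mean of M). They are not divided by transcript length, so levels are compared between animals and not between genes. In bulk tissue, fewer cells of a type and less RNA per cell cannot be told apart.

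PDK4 was higher on the HFr diet, CREB3L3 and VNN1 were higher on average by a similar factor with wider intervals, and PDK2, KLF15 and TXNIP differed by less than the variation between animals. PDK4 was the 1 gene of the 6 tested with an unadjusted p under 0.05, the threshold of the study, by the quasi-likelihood test in edgeR. Over all 7948 tested transcripts 4.29% did, 341 in number, of which 164 were higher and 177 lower. None of the 7948 had an adjusted p under 0.05 in edgeR, where the smallest was 0.872. DESeq2 called 2 transcripts after adjustment, CPE and RRM2, neither of them a gene examined here. The log2 fold change was above 0 for 5 of the 6 genes, TXNIP being the exception, and for 49.8% of all transcripts. None of the 6 genes separated the diets without overlap, which 0.541% of all transcripts did.

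**Figure D1:**
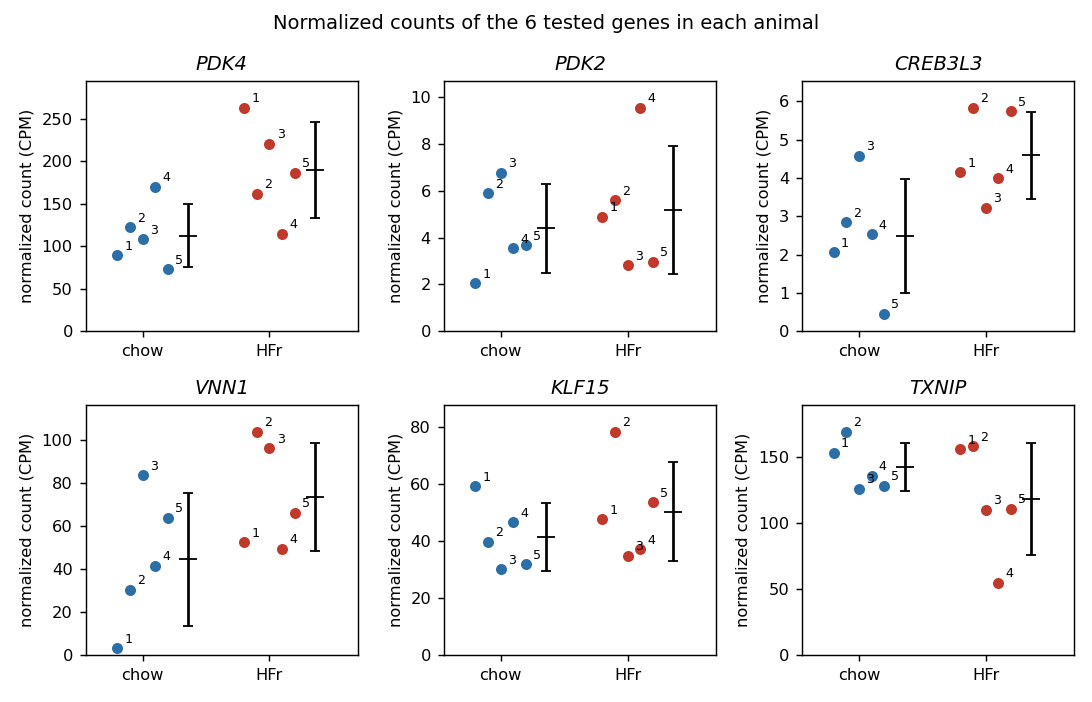
Normalized counts (CPM after TMM scaling, linear axis from 0) of the 6 tested genes in each of the 5 chow animals (blue) and 5 HFr animals (red). Small numbers are replicate numbers, and the black bar beside each group is its mean with the SD. For PDK4, 3 HFr animals lie above every chow animal; for TXNIP, HFr replicate 4 lies lowest at 54.9.

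PDK4 is the kinase isoform that fasting induces most in many tissues. It lies on chromosome 21 of ChlSab1.1 from 53445457 to 53460776 (ENSCSAG00000012972, plus strand, protein-coding) and was covered by 159 to 944 estimated counts per animal. In the HFr animals, replicates 1 to 5 in order, PDK4 stood at 263, 162, 221, 115 and 187 normalized counts. In the chow animals it stood at 89.6, 122, 108, 170 and 73.1 normalized counts. HFr replicates 1, 3 and 5 were above all chow animals, and chow replicates 1, 3 and 5 were below all HFr animals. The overlap came from HFr replicate 4, the lowest of its diet, and chow replicate 4, the highest of its diet. All 5 HFr animals were above the chow mean.

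The mean level of PDK4 was 189 ± 56.4 normalized counts on the HFr diet and 113 ± 37.2 on chow (SD, n = 5 each). This is a log2 fold change (log2FC) of 0.75, with a standard error (SE) of 0.26 (95% interval 0.19 to 1.31), or 1.68-fold, with an unadjusted p of 0.0120 and an adjusted p of 0.9996 from edgeR's quasi-likelihood test. A two-sided exact permutation test of the log2 levels gave p = 0.0397, where 0.00794 is the smallest that 5 animals against 5 allow. Among all tested transcripts 1.17%, 93 in number, had a log2FC at least as large. With the mitochondrial share as a covariate the log2FC was 0.75, and it stayed between 0.60 (without HFr replicate 1) and 0.94 (without chow replicate 4) when any 1 animal was left out. Scaling by library size alone left the log2FC at 0.74 but with an unadjusted p of 0.0542 from edgeR. Over the 26 alternative settings the adjusted p of PDK4 ranged from 0.838 to 1.

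PDK2, the isoform expressed broadly in fed tissues, is on chromosome 16 from 43229093 to 43243627 (ENSCSAG00000005211, minus strand) and had only 7 to 43 estimated counts per animal. It stood at 4.90, 5.61, 2.82, 9.55 and 2.97 normalized counts in HFr replicates 1 to 5. The chow animals had 2.06, 5.91, 6.79, 3.54 and 3.68 normalized counts. The diets overlapped almost fully, and HFr replicate 4 was the one animal above the chow range, chow replicate 1 the one below the HFr range. The log2FC of PDK2 was 0.21 (SE 0.39, 95% interval -0.63 to 1.06, unadjusted p = 0.594 and adjusted p = 0.9996 from edgeR). Without HFr replicate 4 its sign turned, to -0.15. A difference of up to 2.08-fold lies inside the interval, so a change as large as that of PDK4 was not excluded by it.

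PDK1, the isoform known from hypoxic cells, lies on chromosome 10 from 58055511 to 58096774 (ENSCSAG00000014733) and was not tested. It had 1 estimated count in HFr replicate 4, 2 in chow replicate 2 and 0 in the other 8 animals. A count of 0 allows up to 3 counts in a library, which corresponds to between 0.5501 and 1.516 normalized counts, counting error only. This limit holds for the 8 animals with a count of 0, and not for HFr replicate 4 and chow replicate 2. PDK3, the remaining isoform, reached at most 9 estimated counts in an animal and was likewise too low to be tested.

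The ratio of the normalized counts of PDK4 to those of PDK2 within an animal was calculated after the values had been seen. It was 53.7, 28.9, 78.1, 12.0 and 62.9 in HFr replicates 1 to 5. In the chow animals it was 43.6, 20.7, 15.9, 48.1 and 19.9. The HFr diet thus held both the highest ratio, in replicate 3, and the lowest, in replicate 4. The mean log2 ratio was 5.29 ± 1.09 for HFr and 4.74 ± 0.724 for chow (SD, n = 5 each). The difference of 0.55 was smaller than either SD, and a two-sided exact permutation test gave p = 0.365. PDK4 and PDK2 were therefore not shown to respond differently to the diet.

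Genes for the targets of these kinases were then examined. Of the 11 genes listed for the pyruvate dehydrogenase complex, its phosphatases, PDK3 and the pyruvate carrier, 7 were found and 3 were tested, and none had an unadjusted p under 0.05. PDHB, the E1 beta subunit, had 33.5 ± 3.10 normalized counts on the HFr diet and 35.4 ± 2.91 on chow (SD, n = 5 each, log2FC -0.08, SE 0.14). PDHX, which binds the E3 subunit into the complex, had 25.4 ± 4.60 and 23.2 ± 6.25 normalized counts (log2FC 0.10, SE 0.21). Across the 3 genes the median log2FC was 0.00, as it was over all transcripts. PDP1 and PDP2, the phosphatases that reverse the kinases, had at most 1 and 2 estimated counts in any animal.

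CREB3L3, also called CREB-H, is cleaved in the fasted liver and drives genes of triglyceride clearance and ketogenesis together with PPARA. It lies on chromosome 6 from 3905728 to 3921457 (ENSCSAG00000010762, plus strand) and was thinly covered, with 1 to 29 estimated counts per animal. It stood at 4.14, 5.83, 3.23, 3.999 and 5.74 normalized counts in HFr replicates 1 to 5. The chow animals stood at 2.06, 2.85, 4.58, 2.53 and 0.460. Chow replicates 1, 2, 4 and 5 were below all HFr animals, and chow replicate 3 alone reached into their range. The value of chow replicate 5 rests on a single count.

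The mean of CREB3L3 was 4.59 ± 1.15 normalized counts on the HFr diet and 2.49 ± 1.49 on chow (SD, n = 5 each), a log2FC of 0.79 (SE 0.38, 95% interval -0.02 to 1.60). The unadjusted p of 0.0545 from edgeR missed the threshold of the study narrowly, with an adjusted p of 0.9996 from edgeR, and the two-sided exact permutation test gave p = 0.0397. Other methods moved it across the threshold, since DESeq2 gave an unadjusted p of 0.0498. Leaving out chow replicate 3 raised the log2FC to 1.16 with an unadjusted p of 0.0110 from edgeR, and leaving out chow replicate 5 lowered it to 0.59. Of 12 genes listed as linked to CREB3L3, 10 were tested and none had an unadjusted p under 0.05, with 6 higher, 4 lower and a median log2FC of 0.07. APOA5, an activator of lipoprotein lipase, had 115 ± 54.4 and 79.8 ± 25.5 normalized counts (log2FC 0.53, SE 0.32). APOC2, the cofactor of that lipase, had 399.8 ± 179 and 403 ± 199 normalized counts (SD, n = 5 each), and its log2FC of -0.01 (SE 0.37) took either sign across the alternative settings.

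KLF15 is a glucocorticoid-induced factor that favours amino acid breakdown and gluconeogenesis over lipid synthesis in the fasted liver. Its gene is on chromosome 22 from 54659703 to 54674368 (ENSCSAG00000008037, plus strand), with 69 to 349 estimated counts per animal. KLF15 stood at 47.5, 78.3, 34.7, 37.1 and 53.4 normalized counts in HFr replicates 1 to 5. In the chow animals it stood at 59.2, 39.6, 30.1, 46.5 and 31.7. HFr replicate 2 was highest and chow replicate 1 second, and the remaining animals of both diets were interleaved. The log2FC was 0.28 (SE 0.25, 95% interval -0.25 to 0.82, unadjusted p = 0.280 and adjusted p = 0.9996 from edgeR), and without HFr replicate 2 it was 0.06. The two-sided exact permutation test gave p = 0.381.

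Of 13 listed amino acid breakdown genes linked to KLF15, 12 were tested, 8 were higher and 4 lower, and the median log2FC was 0.21. BCKDHB, a subunit of the branched-chain keto acid dehydrogenase, was the one with an unadjusted p under 0.05 and was lower, where 2.23% of all transcripts were called lower. Its level was 8.70 ± 1.96 normalized counts on chow and 5.85 ± 0.823 on the HFr diet (SD, n = 5 each, log2FC -0.55, SE 0.23, unadjusted p = 0.0324 and adjusted p = 0.9996 from edgeR). Each of the 5 HFr animals had less than the chow mean. The call on BCKDHB was lost in 7 of 26 alternatives, namely with scaling by library size alone (unadjusted p = 0.210 from edgeR) and without HFr replicate 1, 3 or 5 or chow replicate 2, 3 or 4, where the highest unadjusted p was 0.0913 from edgeR. Among 16 listed fasting and glucocorticoid signal regulators, 10 were tested, 5 were higher and 5 lower, and none had an unadjusted p under 0.05. IGFBP1, which insulin represses, spread widely, at 1048 ± 790 normalized counts on the HFr diet and 1442 ± 922 on chow (log2FC -0.46, SE 0.59). HNF4A, a master regulator of hepatocyte genes, had 196 ± 37.5 and 218 ± 53.6 normalized counts (SD, n = 5 each, log2FC -0.15, SE 0.21). PPARA itself had at most 19 estimated counts in an animal and was not tested.

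TXNIP was the one tested gene of the set with a lower mean on the HFr diet. Its gene is on chromosome 20 from 12756053 to 12761177 (ENSCSAG00000001782, plus strand), with 247 to 773 estimated counts per animal. It stood at 156, 158, 110.1, 54.9 and 111 normalized counts in HFr replicates 1 to 5. The chow animals were close together, at 153, 169, 126, 136 and 128 normalized counts. HFr replicates 3, 4 and 5 were below all chow animals, whereas HFr replicates 1 and 2 were among the 4 highest of the 10. The coefficient of variation was 35.8% for HFr and 12.9% for chow, a difference that was not tested.

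The mean of TXNIP was 118 ± 42.3 normalized counts on the HFr diet and 143 ± 18.4 on chow (SD, n = 5 each). Its log2FC of -0.27 (SE 0.25, 95% interval -0.81 to 0.26) had an unadjusted p of 0.289 and an adjusted p of 0.9996 from edgeR, and the two-sided exact permutation test gave p = 0.278. Without HFr replicate 4 the log2FC was -0.10. The upper end of the interval corresponds to 1.20-fold higher on the HFr diet, so a larger increase than that lies outside it.

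Of the 7 listed thioredoxin system and arrestin genes, 6 were tested, 2 were higher and 4 lower, and none had an unadjusted p under 0.05. TXNRD1, which recycles thioredoxin, had 14.7 ± 2.20 normalized counts on the HFr diet and 18.6 ± 3.51 on chow (log2FC -0.35, SE 0.19). ARRDC3, an arrestin relative of TXNIP, reached 273 normalized counts in chow replicate 3, where the rest of that diet ran from 19.0 to 56.3, and its log2FC of -0.84 (SE 0.70) became 0.54 without that animal. Of the 10 listed carbohydrate response genes, 8 were tested, 6 were higher and 2 lower, and none had an unadjusted p under 0.05. KHK, which phosphorylates fructose, had 326 ± 110 and 279.6 ± 50.9 normalized counts (SD, n = 5 each, log2FC 0.22, SE 0.23). SLC2A2, the glucose and fructose transporter of hepatocytes, had 173 ± 29.8 normalized counts on the HFr diet and 236 ± 59.4 on chow, with an unadjusted p of 0.0525 from edgeR (log2FC -0.45, SE 0.21). In 7 of 26 alternatives its unadjusted p was under 0.05, namely with DESeq2 (0.0388), voom, robust estimation, mitochondrial transcripts removed, and without HFr replicate 1 or 4 or chow replicate 1 (0.0118 from edgeR).

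VNN1 encodes pantetheinase, which splits pantetheine on the way of coenzyme A breakdown and is a PPARA target in fasted rodent liver. It lies on chromosome 13 from 40819950 to 40855171 (ENSCSAG00000016681, plus strand), with 14 to 463 estimated counts per animal. The HFr animals stood at 52.4, 104, 96.0, 49.3 and 66.1 normalized counts. The chow animals stood at 3.20, 30.2, 83.4, 41.4 and 63.9. Chow replicates 1, 2 and 4 were below all HFr animals, and VNN1 spanned a 32.5-fold range over the 10 animals, the widest of the 6 genes. Its biological coefficient of variation in edgeR was 57.3%, against a median of 25.0% over all transcripts, and between 28.8% and 39.0% for the other 5 genes.

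All 5 HFr animals were above the chow mean of VNN1, at 73.5 ± 25.1 against 44.4 ± 30.9 normalized counts (SD, n = 5 each). The log2FC of 0.73 (SE 0.52, 95% interval -0.39 to 1.85) had an unadjusted p of 0.184 and an adjusted p of 0.9996 from edgeR, and the two-sided exact permutation test gave p = 0.135. Without chow replicate 1 the log2FC was 0.42, and without chow replicate 3 it was 1.11. Of 11 listed pantetheine and coenzyme A genes 6 were tested, 2 higher and 4 lower, and none had an unadjusted p under 0.05. PPCS, an early enzyme of coenzyme A synthesis, had 18.7 ± 2.95 and 20.2 ± 4.05 normalized counts (SD, n = 5 each, log2FC -0.10, SE 0.19). COASY, which carries out its last steps, had a log2FC of 0.08 (SE 0.22). VNN2, the neighbouring pantetheinase gene, was too low to be tested.

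**Figure D2:**
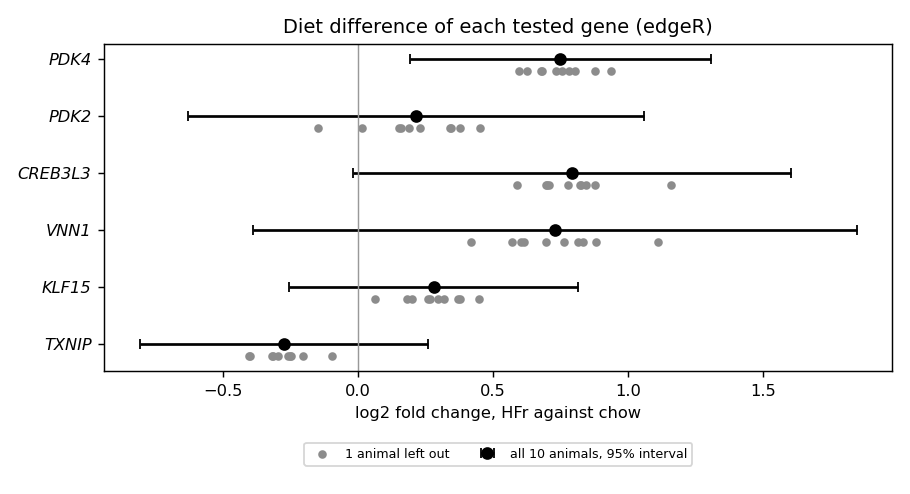
Log2FC of HFr against chow from edgeR for the 6 tested genes, as black points with 95% intervals from all 10 animals and as gray points for fits that each omit 1 animal. The interval of PDK4 (0.19 to 1.31) lies above 0 and that of CREB3L3 (-0.02 to 1.60) just includes it; PDK2 alone has a gray point on the other side of 0 from its black point.

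CYP4 enzymes start the omega-oxidation of fatty acids, the pathway of CYP4A11. Of the 11 listed genes of this pathway 7 were found and 5 were tested, 3 higher and 2 lower, and none had an unadjusted p under 0.05. CYP4F11 had 297 ± 87.5 normalized counts on the HFr diet and 282 ± 24.5 on chow (SD, n = 5 each, log2FC 0.07, SE 0.21). CYP4B1 had 174 ± 101 and 182 ± 124 normalized counts (log2FC -0.07, SE 0.54). Members of the CYP4F family are close in sequence, and reads shared among them could be split by the authors' estimation. The values of CYP4F11 are therefore uncertain.

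Genes of fatty acid oxidation and ketogenesis linked to PPARA had mostly positive log2FC values, as PDK4 did. This list was written with earlier results of these data known, among them those for FABP1. Its counts are therefore not independent evidence. Of its 24 genes 20 were tested, 19 had a log2FC above 0, against 49.8% of all transcripts, and the median was 0.40. The unadjusted p was under 0.05 for 4, all higher on the HFr diet, where 2.06% of all transcripts were called higher. Among these were FABP1, HADHA and SLC25A20, and none of the 4 passed adjustment (adjusted p = 0.9996 for each from edgeR). The number with a positive log2FC stayed between 18 and 20 when 1 animal was left out. The number with an unadjusted p under 0.05 was 2 without HFr replicate 2, 7 without chow replicate 3 and 2 with scaling by library size alone. These counts under other settings were added after the data had been seen.

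HADHA, the alpha subunit of the mitochondrial trifunctional protein, had 83.7 ± 31.2 normalized counts on the HFr diet and 52.6 ± 9.27 on chow (SD, n = 5 each, log2FC 0.67, SE 0.24, unadjusted p = 0.0140 from edgeR). SLC25A20, which carries acylcarnitines into mitochondria, had 55.8 ± 11.1 and 40.6 ± 7.92 normalized counts (SD, n = 5 each, log2FC 0.46, SE 0.19, unadjusted p = 0.0277 from edgeR). The call on SLC25A20 was lost in 6 of 26 alternatives, with scaling by library size alone (unadjusted p = 0.145 from edgeR) and without HFr replicate 2 or 3 or chow replicate 1, 2 or 5, where the highest unadjusted p was 0.0868 from edgeR. That on HADHA was lost in 2, with scaling by library size alone (unadjusted p = 0.0579 from edgeR) and without HFr replicate 2 (unadjusted p = 0.0533 from edgeR). FABP1, which binds fatty acids in the hepatocyte cytosol, stood at 1225, 1530, 1178, 1041 and 733 normalized counts in the HFr animals, with HFr replicate 5 inside the chow range of 209 to 778.

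**Figure D3:**
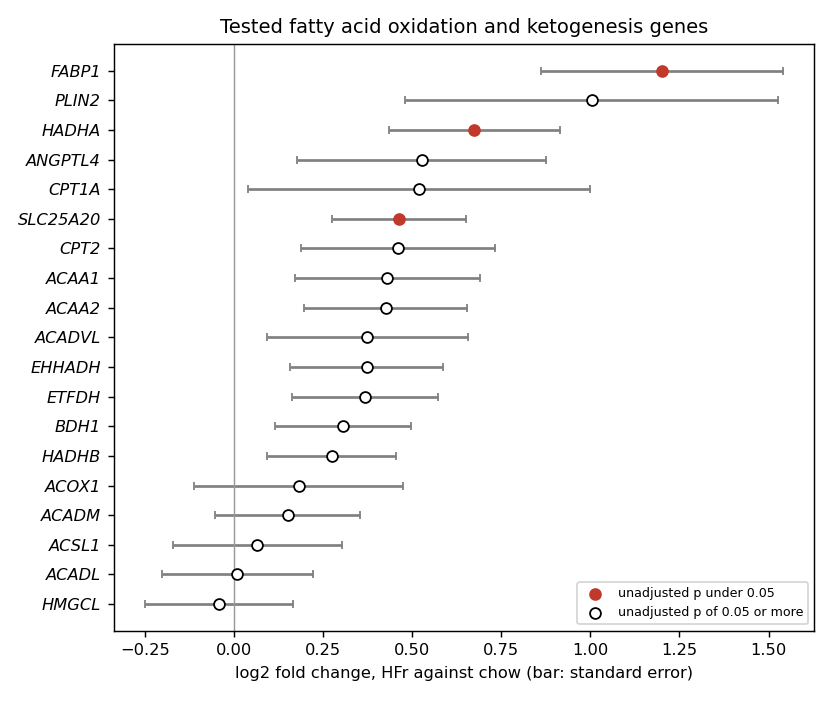
Log2FC of HFr against chow with its SE for 19 of the 20 tested genes of the fatty acid oxidation and ketogenesis list, from edgeR. Filled points mark the 3 plotted genes with an unadjusted p under 0.05, and 18 of the 19 points lie to the right of 0.

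The 6 tested genes did not share 1 order of the animals. HFr replicate 2 was among the 3 highest animals for 4 of them, whereas chow replicate 1 was among the 3 lowest for 4. Chow replicates 4 and 5 were among the 3 highest for none. HFr replicate 4 was the lowest HFr animal for PDK4, VNN1 and TXNIP and the highest of all for PDK2. Over the 15 pairs of genes, the highest Pearson's r of log2 levels across the 10 animals was that of PDK4 with CREB3L3 (r = 0.62, permutation p = 0.0490, adjusted p = 0.599, Spearman's rho = 0.47, permutation p = 0.179, adjusted p = 0.748). Without chow replicate 5 and HFr replicate 1, the animals farthest from the median of PDK4, r was 0.33. Leaving out the most extreme animals narrows the range of PDK4, so this fall cannot show that the relation rested on them. Within the HFr diet r was -0.20 and within chow 0.60, from 5 animals each. The highest Spearman's rho was that of CREB3L3 with VNN1 (rho = 0.65, permutation p = 0.0496, adjusted p = 0.744, Pearson's r = 0.33, permutation p = 0.283, adjusted p = 0.599). For this pair r was 0.63 without chow replicates 5 and 1, the animals farthest from the median of CREB3L3, and within the diets it was 0.15 for HFr and 0.04 for chow. No pair had an adjusted p under 0.05. With the mitochondrial share of the library, the largest of 6 correlations was that of CREB3L3 (r = -0.52, permutation p = 0.111, adjusted p = 0.666, rho = -0.55, permutation p = 0.103, adjusted p = 0.498). It was -0.59 without the 2 animals farthest from the median share, and within the diets it was -0.99 for HFr and -0.60 for chow, from 5 animals each. The log2FC of CREB3L3 was 0.89 with that share as a covariate. PDK4 had r = 0.06 with that share (permutation p = 0.855, adjusted p = 0.935, rho = 0.05, permutation p = 0.892, adjusted p = 0.892), and r was 0.06 again without those 2 animals.

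**Figure D4:**
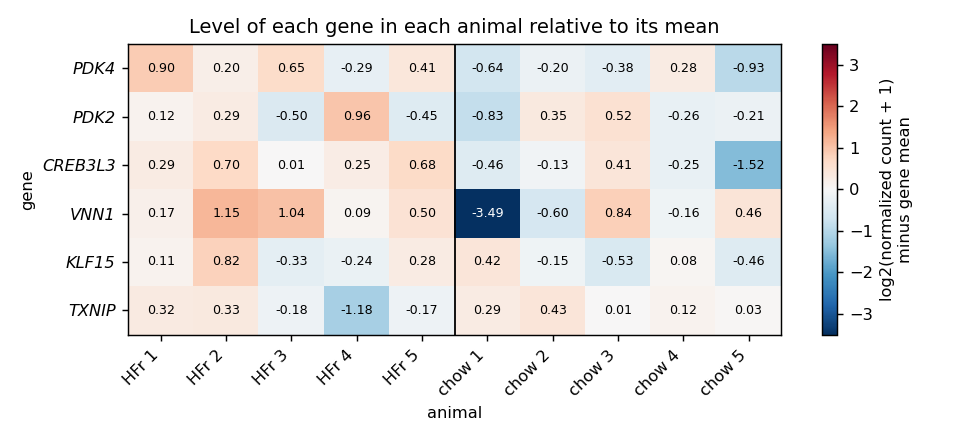
Level of the 6 tested genes (rows) in each animal (columns, HFr left and chow right of the line) as log2 of the normalized count plus 1, minus the gene's mean over the 10 animals. The lowest cells are VNN1 in chow replicate 1 (-3.49), CREB3L3 in chow replicate 5 (-1.52) and TXNIP in HFr replicate 4 (-1.18).

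The transcripts outside the set whose log2 levels followed PDK4 most closely over the 10 animals, by Pearson's r among the 7948 tested transcripts, were LANCL2 (r = 0.94), VOPP1 (r = 0.91), MTOR (r = 0.88), CDKL2 (r = 0.86) and C11orf52 (r = 0.85). They were chosen as the highest of many, so these values are a description, and the points share library depth and scaling. LANCL2 and VOPP1 lie near each other on chromosome 21, at 3434909 to 3501335 and 3295521 to 3397529. None of the 5 differed between the diets at an unadjusted p of 0.05. The log2FC of LANCL2 was 0.26 (SE 0.19) and that of VOPP1 was 0.52 (SE 0.33).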

How the data were processed

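Liver RNA of 10 animals (5 HFr, 5 chow) was sequenced from stranded, polyadenylated libraries. Reads were aligned by the authors to ChlSab1.1 (STAR 2.5.3a in the submitters' processing notes) and quantified with Partek Flow on Ensembl release 93 transcripts, which gave the deposited estimated counts, not normalized. The deposited signal values are the same counts scaled by the authors with TMM, and were used for 1 alternative only. Gene coordinates are those of the tables, with the listed stop excluded. Counts were rounded, TMM-normalized and filtered by filterByExpr (at least 10 counts, total at least 15). The diets were compared by the quasi-likelihood test in edgeR, without covariates, and p-values were adjusted by Benjamini-Hochberg over all 7948 tested transcripts. The filter uses all 10 animals and sets the depth below which a gene was not tested. Standard errors are the log2 fold change divided by the square root of F, and intervals cover 95%. Single values were compared by exact permutation tests, two-sided, over 252 assignments of animals to diets. Gene levels entered as log2 of the normalized count plus 1, the PDK4 to PDK2 ratio as its log2 and the mitochondrial share as a percent. Correlations used 100000 permutations. The sample titles give only the diet and a number. That each sample is 1 animal rests on the 5 animals per diet that the paper describes. The software was edgeR 4.0.16, DESeq2 1.42.0 and limma 3.58.1 under R 4.3.3.

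The 8 genes, 9 context lists and 8 marker lists were chosen with earlier results of these data known. Of each context list, tested genes with an unadjusted p under 0.05 are named, or else the 2 with the highest mean. PDK3, PDP1, PDP2, PPARA, VNN2, ACTA2 and KDR were named after their values were seen. The values of 1 gene of the oxidation list are not reported here. The procedure was tested on simulated data. The 26 alternatives covered normalization, filter, test, rounding, covariates and each animal left out. Summed levels of the other marker lists, HFr against chow, were 148 to 251 and 104 to 291 for adipocytes, 47.6 to 201 and 53.9 to 219 for macrophages, 35.5 to 77.5 and 37.5 to 102 for neutrophils and lymphocytes, 6.00 to 27.8 and 10.1 to 32.7 for cholangiocytes, 224 to 407 and 179.9 to 827 for stellate cells and fibroblasts, and 343 to 457 and 263 to 449.8 for endothelial cells. Their part in the results was not tested.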

Additional observations from a re-analysis of the deposited data

Results flagged for a closer look

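Among the 50 groups of 5 animals examined (6 genes of the set and 19 context genes, each diet), 4 held an animal whose gap to the nearest other exceeded Dixon's critical value of 0.71 of the group's range, where chance flags about 1 group in 20. PDHB stood at 40.5 normalized counts in chow replicate 2, above the other chow animals. KHK stood at 517 normalized counts in HFr replicate 4, the rest of that diet running from 250.3 to 311. ARRDC3 stood at 273 normalized counts in chow replicate 3. PPCS stood at 13.1 normalized counts in chow replicate 2, below the other chow animals. None of the 6 genes of the set was among them.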

How the results depend on the processing

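TXNIP, KLF15 and VNN1 kept their direction and their side of an unadjusted p of 0.05 under all 26 alternatives, with log2 fold changes from -0.40 to -0.10, 0.06 to 0.45 and 0.42 to 1.35. PDK4 kept its direction in all 26 and its unadjusted p was above 0.05 for library size scaling only (log2 fold change 0.74). Its adjusted p ranged from 0.838 to 1. With 1 animal left out, PDK4 ranged from 0.60 to 0.94, PDK2 from -0.15 to 0.45, reversing without HFr replicate 4, and CREB3L3 from 0.59 to 1.16, with an unadjusted p under 0.05 without HFr replicate 3 or chow replicate 3. CREB3L3 also had an unadjusted p under 0.05 with DESeq2 (log2 fold change 0.80), limma with a pseudocount of 1 (0.78) or 0.1 (1.104), voom (0.97), the study's equal-variance test (0.92) and the mitochondrial percent as a covariate (0.89). Genes of the set with an unadjusted p under 0.05 numbered 2 in those 6 fits, 0 with library size scaling and 1 to 2 with 1 animal left out. CREB3L3 and PDK2 were not tested where at least 10 counts in every animal were required. The cause of these shifts was not tested.

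Transcripts with an unadjusted p under 0.05 numbered 123 with library size scaling and 756 of 16066 when a count in any animal sufficed, and 260 to 408 with 1 animal left out. After adjustment 1 transcript was called with library size scaling (CAPSL) and 2 with DESeq2. Signs also turned for 7 context genes. APOC2 was at 0.0046 with upper quartile scaling, 0.0029 with limma at either pseudocount, 0.020 with voom, 0.023 with the equal-variance test and 0.027 with the replicate block, and ranged from -0.21 to 0.22 with 1 animal left out. CYP4F11 was at -0.0195 and CYP4B1 at 0.0057 with voom. With 1 animal left out, CYP4F11 ranged from -0.12 to 0.16, CYP4B1 from -0.30 to 0.40, COASY from -0.095 to 0.15, KHK from -0.016 to 0.30, PDHX from -0.0098 to 0.23 and ARRDC3, at -0.84 with all animals, from -1.30 to 0.54, positive without chow replicate 3. The labels do not say whether the replicate numbers pair the animals. Same-numbered deviations had correlations from -0.287 to 0.0986, and no HFr animal correlated best with its own number. With 5 animals per diet, such correlations cannot exclude a pairing. With the replicate block, PDK4 had a log2 fold change of 0.77 and CREB3L3 0.89, and no call among the 6 genes changed. Depth limits PDK1, PDK2 and CREB3L3 most, with at most 43 estimated counts in an animal.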
